A study of Mus musculus with 4 samples.

Results

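Forkhead (Fox) proteins are transcription factors that share a DNA-binding fold, the forkhead box. The genes described here are 8 members of this family known from embryonic mesenchyme: Foxf1, Foxf2, Foxc1, Foxc2, Foxd1, Foxd2, Foxp1 and Foxp2. They were taken by gene name from an expression table of 17568 genes, in which all 8 were listed. A further 36 mouse forkhead genes were looked up by symbol, and 32 of those were listed; the other 4 are not analysed here.

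The series holds 4 RNA-seq libraries of E10.25 mouse forelimbs (Swiss Webster strain, wild type) grown in culture: 2 from medium with cyclopamine and 2 from control medium. Cyclopamine is a plant alkaloid that blocks Smoothened, the membrane protein through which Hedgehog ligands signal. The sources used here state neither dose nor vehicle, nor for how long or how many limbs were cultured, and the labels call the libraries biological replicates without saying what was kept separate. The question put to these genes is whether forkhead transcripts of limb mesenchyme differ when Hedgehog signalling is blocked, since several Fox genes respond to Hedgehog in other mesenchyme.

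As background, Foxf1 and Foxf2 are induced by Hedgehog ligands in the mesenchyme of gut and lung, where they help shape the supporting tissue. Foxc1 and Foxc2 act in somites, blood and lymph vessels, kidney and eye. Foxd1 marks kidney stroma and part of the retina, and Foxd2 is a close relative made in similar mesenchyme. Foxp1 and Foxp2 are larger repressors that pair through a leucine zipper, known from lung, heart, cartilage and neurons.

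The members form close pairs, and the DNA that codes for the forkhead box shows how close. Over 120 coding bases around the helix that reads the DNA, Foxf1 and Foxf2 differed at 7 bases, Foxc1 and Foxc2 at 13, Foxd1 and Foxd2 at 11, and Foxp1 and Foxp2 at 17. Across pairs the likeness was lower, with 37 differences between Foxf1 and Foxc2, which are neighbours on chromosome 8. The Foxf stretches, from the GENCODE vM21 transcripts in mm10, are shown because this pair is the closest of the 4 over this window; capitals mark the bases that differ between them.
Foxf1 (chr8:121084624-121084743, plus strand): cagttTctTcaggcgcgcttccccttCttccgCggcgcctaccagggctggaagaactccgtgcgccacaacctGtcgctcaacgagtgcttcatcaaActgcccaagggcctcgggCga
Foxf2 (chr13:31626461-31626580, plus strand): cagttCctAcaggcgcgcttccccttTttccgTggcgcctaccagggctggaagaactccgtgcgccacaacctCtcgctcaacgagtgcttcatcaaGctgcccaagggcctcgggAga

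In the Foxf pair 0 of the 40 codons differed in the amino acid they encode, and in the Foxc pair 1 of 40 did. The longest run of coding bases shared without a difference was 41 between Foxf1 and Foxf2, 53 between Foxc1 and Foxc2, 47 between Foxd1 and Foxd2, and 35 between Foxp1 and Foxp2. Over the whole coding sequence, 0.636% of the 35-base windows of Foxf1 also occur without a difference in Foxf2. The share was 1.6% for Foxc1 in Foxc2, 1.95% for Foxd1 in Foxd2 and 0.048% for Foxp1 in Foxp2. The sources used here do not say how reads with several matches were treated, so some of each pair's reads could have been split or dropped. That share of reads was not measured.

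The libraries held 12962633 and 12010965 gene-assigned reads in cyclopamine 1 and 2, and 9779589 and 13555492 in control 1 and 2. Levels are in CPM, normalized counts per 1000000 reads, and a single read was worth between 0.0735 and 0.103 CPM. The Hedgehog targets Gli1 and Ptch1 fell in cyclopamine. Gli1, a pathway-induced transcription factor gene, measured 8.05 and 4.70 CPM in cyclopamine, against 56.2 and 56.7 CPM in control, and Ptch1, a Hedgehog receptor gene, measured 51.3 and 32.2 CPM, against 116 and 107 CPM. Hhip, a target that encodes a Hedgehog-binding protein, had a log2 fold change of -1.04 (SE 0.29) that did not pass (limma, adjusted p = 0.289). With the replicate number as a block Hhip passed (adjusted p = 0.00644), and over all alternatives its adjusted p ran up to 0.872. The forelimb gene Tbx5 measured 193 and 226 CPM in cyclopamine and 201 and 224 CPM in control, and the hindlimb gene Tbx4 lay between 5.51 and 9.90 CPM in all 4 libraries.

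Of the forkhead members, none passed the test of cyclopamine against control (0 of the 7 tested), in a fit where 0.28% of all 13568 genes tested were called. This test was limma on log2(CPM + 0.5) for genes that averaged 1 CPM or more, with Benjamini-Hochberg adjustment over all genes and a threshold of 0.05. Foxf2 lay under that filter. At an unadjusted p under 0.05 the members gave 1 gene lower, Foxf1, and 2 higher, Foxp1 and Foxp2, where 5.82% of all genes tested reached that mark. The quasi-likelihood and exact tests of edgeR and the test of DESeq2, run on the recovered reads, also called 0 members. In 4 of the 7, Foxf1, Foxd1, Foxp1 and Foxp2, the groups did not overlap, which held for 32.6% of all genes tested, 15.8% lower and 16.8% higher in cyclopamine. The median log2 fold change of the 7 was -0.03, and that of all genes tested was 0.00455.

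**Figure D1:**
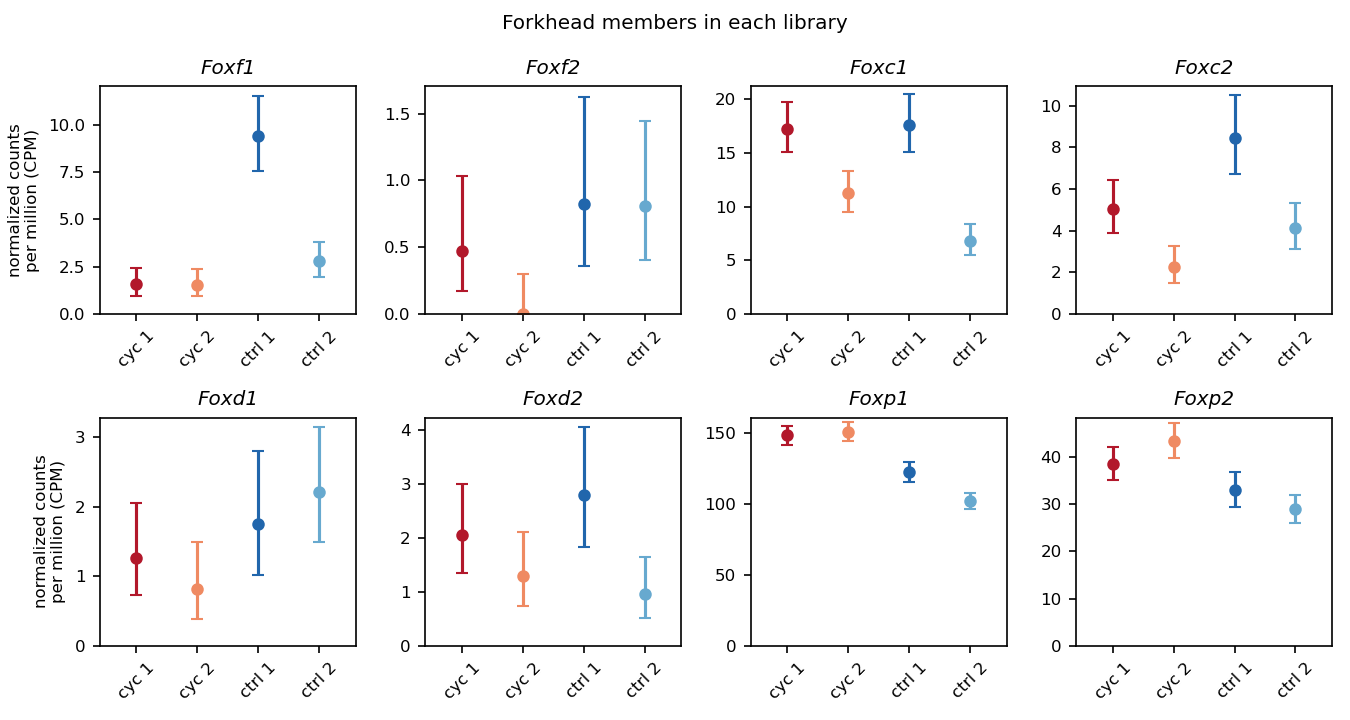
Level of each forkhead member in CPM (y axes start at 0) in each library (x axis: cyclopamine 1 and 2, then control 1 and 2). Points are library values and bars are exact 95% Poisson intervals of the reads, which cover counting error only. Foxf1 stands at 9.39 CPM in control 1 and at 2.79 CPM or less elsewhere, while Foxp1 and Foxp2 lie higher in both cyclopamine libraries than in both controls.

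Foxf1 had the largest log2 fold change and the smallest p of the members. It measured 1.58 and 1.54 CPM in cyclopamine 1 and 2, on 20 and 19 reads, against 9.39 and 2.79 CPM in control 1 and 2, on 91 and 38 reads. Both cyclopamine libraries lay below both controls, and they were close to each other, while the controls stood apart. In bulk tissue such as this, fewer cells of a type and less RNA per cell cannot be told apart. The log2 fold change was -1.47 (SE 0.44, 95% interval -2.41 to -0.53, limma, unadjusted p = 0.00451, adjusted p = 0.385). Because limma draws each gene's variance towards that of genes of similar level, this interval does not rest on the spread of Foxf1 alone. With the same prior variance for every gene, whatever its level, limma gave an unadjusted p of 0.0232.

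The size of that difference rested on which control it was set against. Control 1 held 3.36 times as much Foxf1 as control 2, and their counting intervals, 7.56 to 11.5 CPM and 1.98 to 3.83 CPM, did not meet. The intervals of the cyclopamine libraries, 0.964 to 2.44 CPM and 0.927 to 2.40 CPM, overlapped that of control 2 and not that of control 1. Without control 1 the log2 fold change was -0.68 (adjusted p = 0.855), and without control 2 it was -2.26, past the threshold (adjusted p = 0.0161). Without cyclopamine 1 or 2 it stayed at -1.48 and -1.46. On the log2(CPM + 0.5) scale the gap between the controls was 1.59, and 0.45% of all genes tested had a gap as large, or 1.06% of the 2348 tested genes within 2-fold of its mean level. Genes of splanchnic and body wall mesoderm were also higher in control 1 than in control 2, in 11 of 11 tested. The same order held for 5 of 5 neural crest and 10 of 12 ectoderm genes, against 1 of 10 neural genes. The share over all genes tested was not counted, and these lists are described with the tissue markers. In the authors' deposited table Foxf1 has a log2 fold change of -1.95 and a false discovery rate of 0.13. With the replicate number as a block, limma gave an adjusted p of 0.00192, the lowest over all alternatives, which ran up to 0.855; no label links that number to a litter or a day.

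Foxf2, the paralogue of Foxf1, was near the limit of detection. It had 6 and 0 reads in cyclopamine 1 and 2, against 8 and 11 reads in control 1 and 2, which is 0.473 and 0 CPM against 0.825 and 0.808 CPM. A count of 0 in cyclopamine 2 allows a level of up to 0.243 CPM, taking 3 reads as the floor, and the upper end of the two-sided 95% interval drawn in the plot of levels by library is 0.299 CPM. Both controls were higher than both cyclopamine libraries, but the counting interval of cyclopamine 1 (0.174 to 1.03 CPM) covered both control values. The authors' deposited table gives a log2 fold change of -1.73 with a p-value of 0.0904.

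Foxf1 and Foxc2 belong to a cluster on chromosome 8 that also holds Fendrr, Mthfsd and Foxl1. In mm10 the order is Fendrr (121054882 to 121083110, minus strand), Foxf1 (121084386 to 121088144, plus), Mthfsd (121091628 to 121108392, minus), Foxc2 (121116171 to 121118895, plus) and Foxl1 (121127940 to 121130644, plus). Fendrr is a long noncoding RNA that starts 1.28 kb from Foxf1 and points the other way, and it is known from lateral mesoderm. It had 5 and 10 reads in cyclopamine 1 and 2, against 28 and 7 reads in control 1 and 2, or 0.394 and 0.81 CPM against 2.89 and 0.514 CPM. Like Foxf1, Fendrr was highest in control 1, but its groups overlapped, and the log2 fold change of -0.78 (SE 0.57) did not pass (limma, adjusted p = 0.998). It was -1.65 without control 2, -0.50 without cyclopamine 1 and -1.43 in edgeR's quasi-likelihood test, with an adjusted p of 0.559 or more over all alternatives. Without control 1 Fendrr lay under the filter and was not tested. Mthfsd, a folate-related enzyme gene between Foxf1 and Foxc2, measured 12.3 and 17.1 CPM in cyclopamine and 17.1 and 20.3 CPM in control, and control 1 was not its highest library. Foxl1, a gene of gut mesenchyme, lay at 0.619 CPM or less throughout.

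**Figure D2:**
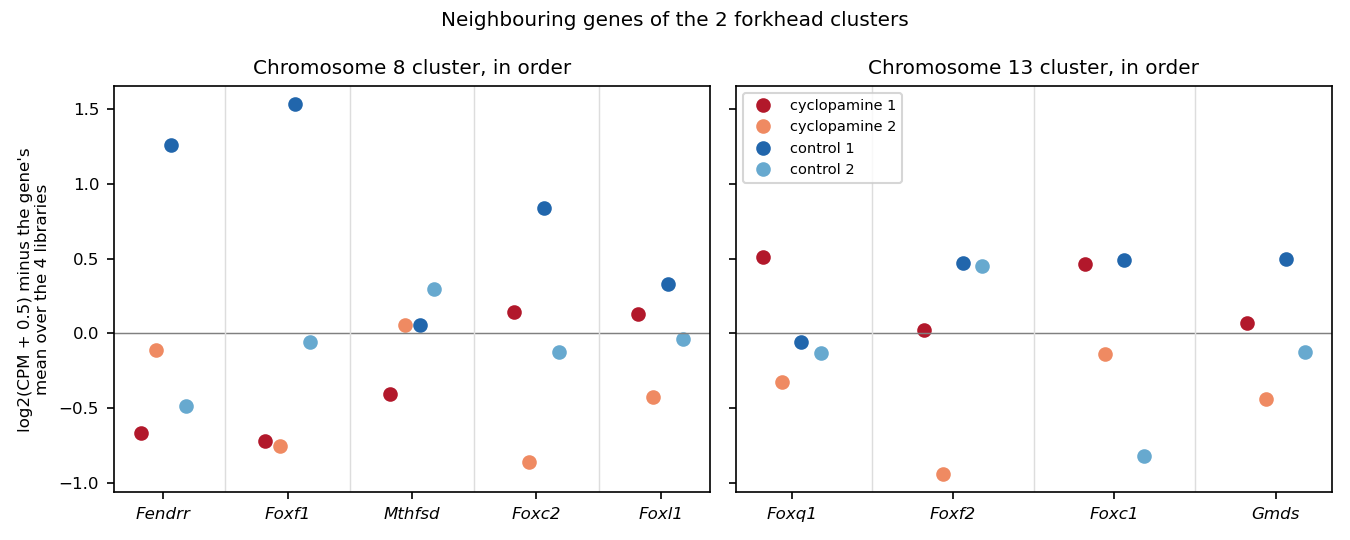
Each point is a library's log2(CPM + 0.5) minus the gene's mean over the 4 libraries (y axis), for genes of the chromosome 8 and chromosome 13 clusters in their order along the chromosome (x axis). Control 1 stands highest for every gene shown except Mthfsd, which lies between Foxf1 and Foxc2, and Foxq1. For Foxf2 and Foxc1 it does so narrowly. Foxf2, Foxl1 and Foxq1 rest on few reads.

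Foxc2, which acts in lymph vessels and somites, measured 5.05 and 2.27 CPM in cyclopamine 1 and 2, against 8.46 and 4.11 CPM in control 1 and 2. The groups overlapped, and in each the library numbered 1 was about as much higher than the library numbered 2, by 1.003 in cyclopamine and 0.96 in control on the log2 scale. Its log2 fold change of -0.71 (SE 0.39) did not pass (limma, adjusted p = 0.927), and it was -0.24 without control 1 and -0.21 without cyclopamine 2, against -1.19 without control 2 and -1.22 without cyclopamine 1.

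Foxc1 sits with Foxq1 and Foxf2 on chromosome 13, 175 kb beyond Foxf2, at 31806633 to 31812476. It measured 17.3 and 11.3 CPM in cyclopamine 1 and 2, on 219 and 139 reads, against 17.6 and 6.83 CPM in control 1 and 2, on 171 and 93 reads. The controls enclosed both cyclopamine libraries, so the groups overlapped fully. The log2 fold change was 0.33 (SE 0.34, limma, adjusted p = 0.9996), with a 95% interval from -0.39 to 1.04, and it changed sign, to -0.33, without control 2. Foxq1, the first gene of this cluster, had at most 0.394 CPM, and Gmds, an enzyme gene 7.10 kb past Foxc1, measured 11.6 and 8.02 CPM in cyclopamine and 15.8 and 10.1 CPM in control.

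Foxd1 measured 1.26 and 0.81 CPM in cyclopamine 1 and 2, on 16 and 10 reads, against 1.75 and 2.20 CPM in control 1 and 2, on 17 and 30 reads. Both cyclopamine libraries were lower than both controls, and the log2 fold change of -0.70 (SE 0.43) did not pass (limma, adjusted p = 0.969). Without each library in turn its value stayed below 0, from -0.91 to -0.49. Of the 8 members, Foxd1 alone was higher in control 2 than in control 1.

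Foxd2 measured 2.05 and 1.30 CPM in cyclopamine 1 and 2, against 2.79 and 0.955 CPM in control 1 and 2, and the controls again enclosed the cyclopamine libraries. Its log2 fold change was -0.03 (SE 0.46), with a 95% interval from -1.01 to 0.95. That value was 0.56 without control 1, 0.22 without cyclopamine 2 and -0.62 without control 2. Foxd2os, a noncoding RNA that starts 0.383 kb from Foxd2 on the other strand and is listed in the table under an older name, measured 2.37 and 1.30 CPM in cyclopamine and 2.27 and 2.50 CPM in control.

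The Foxp genes lay on the other side of 0 from Foxf1, with smaller values. Foxp1, a repressor known from lung, heart and limb-directed motor neurons, measured 149 and 151 CPM in cyclopamine 1 and 2, against 123 and 102 CPM in control 1 and 2. Both cyclopamine libraries were higher than both controls, and no counting interval of one group met one of the other. The log2 fold change was 0.42 (SE 0.15, 95% interval 0.10 to 0.74), which did not pass (limma, unadjusted p = 0.014, adjusted p = 0.612). It ran from 0.29 without control 2 to 0.55 without control 1. With the replicate block it passed, at an adjusted p of 0.0226, and over all alternatives the adjusted p ran up to 0.951.

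Foxp2, known from lung and from brain circuits of vocal learning, measured 38.7 and 43.6 CPM in cyclopamine 1 and 2, against 33.0 and 28.9 CPM in control 1 and 2. Again both cyclopamine libraries were higher, and the log2 fold change was 0.40 (SE 0.17, 95% interval 0.04 to 0.77, limma, adjusted p = 0.784). The counting intervals of cyclopamine 1 (35.3 to 42.2 CPM) and control 1 (29.5 to 36.8 CPM) overlapped. Foxp4, the remaining Foxp gene of comparable level, measured 110 and 103 CPM in cyclopamine and 124 and 89.8 CPM in control, with a log2 fold change of 0.00494 (SE 0.17).

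**Figure D3:**
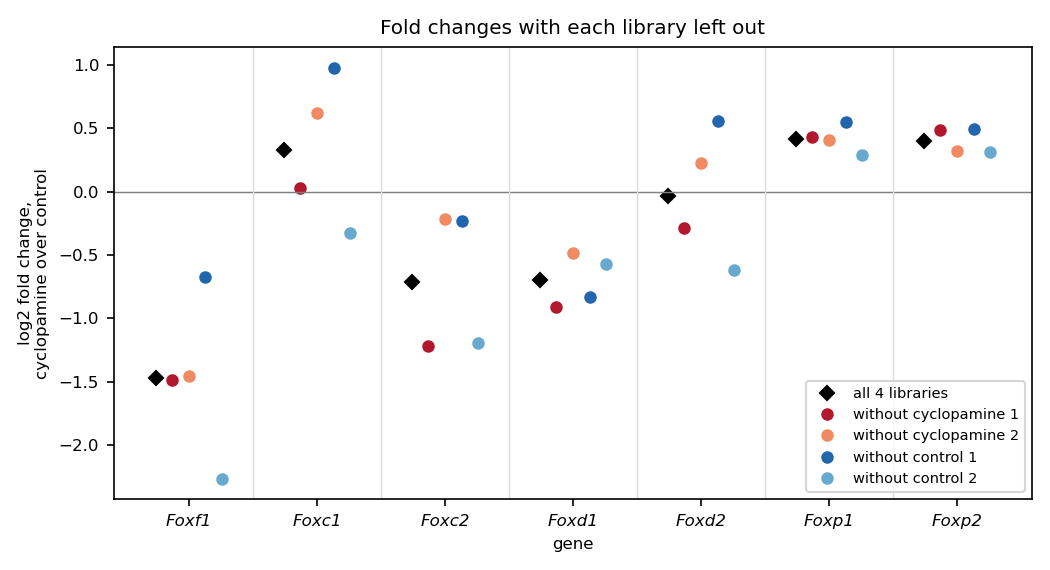
Log2 fold change of each tested member (y axis, cyclopamine over control) with all 4 libraries (diamonds) and with each library left out in turn (circles, coloured by the library left out). Foxp1 and Foxp2 stay between 0.29 and 0.55, Foxf1 ranges from -2.26 to -0.68, and Foxc1 and Foxd2 take both signs.

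Per kb of exon the members spanned a wide range of levels. In cyclopamine the mean CPM per kb was 10.9 for Foxp1, 2.52 for Foxp2, 2.44 for Foxc1, 1.34 for Foxc2, 0.646 for Foxd2, 0.645 for Foxf1, 0.205 for Foxd1 and 0.10 for Foxf2. In control the order was Foxp1 (8.17), Foxf1 (2.52), Foxc2 (2.31), Foxc1 (2.09), Foxp2 (1.90), Foxd2 (0.722), Foxd1 (0.391) and Foxf2 (0.346). Neighbours in the cyclopamine order overlapped for Foxp2 and Foxc1, for Foxd2 and Foxf1, and for Foxd1 and Foxf2, and the other neighbours did not. Foxp1 stood apart in every library, and Foxf1, Foxc2, Foxc1 and Foxp2 overlapped in the controls, where Foxf1 alone ran from 1.16 to 3.89 CPM per kb. These levels divide by the union of all annotated exons, 13751 bases for Foxp1 and 16346 for Foxp2, and so may understate genes with many alternative exons.

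Control 1 was higher than control 2 for 7 of the 8 members, or 6 of the 7 tested, and cyclopamine 1 was higher than cyclopamine 2 for 6 of the 8. The share over all genes tested was not counted for either order. The gap between controls on the log2(CPM + 0.5) scale was 1.59 for Foxf1, 1.31 for Foxc1, 1.18 for Foxd2 and 0.96 for Foxc2, and 0.26 for Foxp1 and 0.19 for Foxp2. GC content moved with this gap over all genes: its median was -0.09 for transcripts of 40 to 45% GC, 0.04 for 50 to 55%, 0.09 for 55 to 60% and 0.14 for 60 to 65%. The longest transcript has 54.4% GC in Foxf1, 55.9% in Foxc1, 62.0% in Foxc2 and 62.7% in Foxd2, against 44.9% in Foxp1 and 42.6% in Foxp2. Foxf2 has 59.8% GC with a gap of 0.02, on 8 and 11 reads in control 1 and 2. Foxd1 has 54.4% GC with a gap of -0.26, on 17 and 30 reads. Between the cyclopamine libraries, number 1 minus number 2, the medians of the same 4 GC ranges were 0.04, -0.01, -0.04 and -0.02. That gap was 1.003 for Foxc2, 0.96 for Foxf2, 0.60 for Foxc1, 0.51 for Foxd2 and 0.43 for Foxd1. It was 0.03 for Foxf1, -0.02 for Foxp1 and -0.17 for Foxp2. The part of GC content in the gaps was not tested.

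Over the 4 libraries the genes nearest to Foxf1 in pattern were Lmo1, Sel1l3 and Enpp2, by Euclidean distance between centred log2(CPM + 0.5) values among 10999 genes that averaged 5 CPM or more. The distances were 0.926, 0.96 and 1.04. Lmo1 measured 7.49 and 5.27 CPM in cyclopamine and 15.2 and 8.82 CPM in control. None of the 3 had as wide a gap between controls as Foxf1, since Sel1l3 measured 12.7 and 8.96 CPM there and Enpp2 37.0 and 29.9 CPM.

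Among the other 32 listed forkhead genes 12 were tested and 0 passed in limma, with 1 at an unadjusted p under 0.05, and 0 passed in either edgeR test or in DESeq2. Their median log2 fold change was -0.01. Foxm1, which drives the expression of mitotic genes, was the gene under that mark, at 103 and 107 CPM in cyclopamine and 134 and 144 CPM in control. Its log2 fold change was -0.40 (SE 0.15, limma, adjusted p = 0.612), and with the replicate block it passed (adjusted p = 0.0352), against at most 0.888 over all alternatives. The fixed list of 16 G2/M genes, which are made in dividing cells, was lower in cyclopamine in all 16 cases, 0 past the threshold and 4 at an unadjusted p under 0.05, with a median log2 fold change of -0.31, and their part in the level of Foxm1 was not tested.

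The other forkhead genes of at least 5 CPM lay closer to 0. Foxk2, a broadly made repressor and the highest forkhead gene per length, measured 212 and 208 CPM in cyclopamine and 177 and 196 CPM in control. Foxj3 had a log2 fold change of 0.11, Foxj2 of 0.24, Foxk1 of -0.10, Foxn2 of -0.18 and Foxn3 of -0.01. Of the insulin-regulated Foxo genes, Foxo1 had -0.05, Foxo3 -0.02 and Foxo4 -0.14. Foxi2, at 4.18 and 3.08 CPM in cyclopamine and 3.61 and 1.47 CPM in control, had the largest log2 fold change of the 12 tested, 0.52 (SE 0.40), and its groups overlapped. The remaining 20 listed genes lay under 1 CPM on average, among them the endoderm genes Foxa1, Foxa2 and Foxa3.

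**Figure D4:**
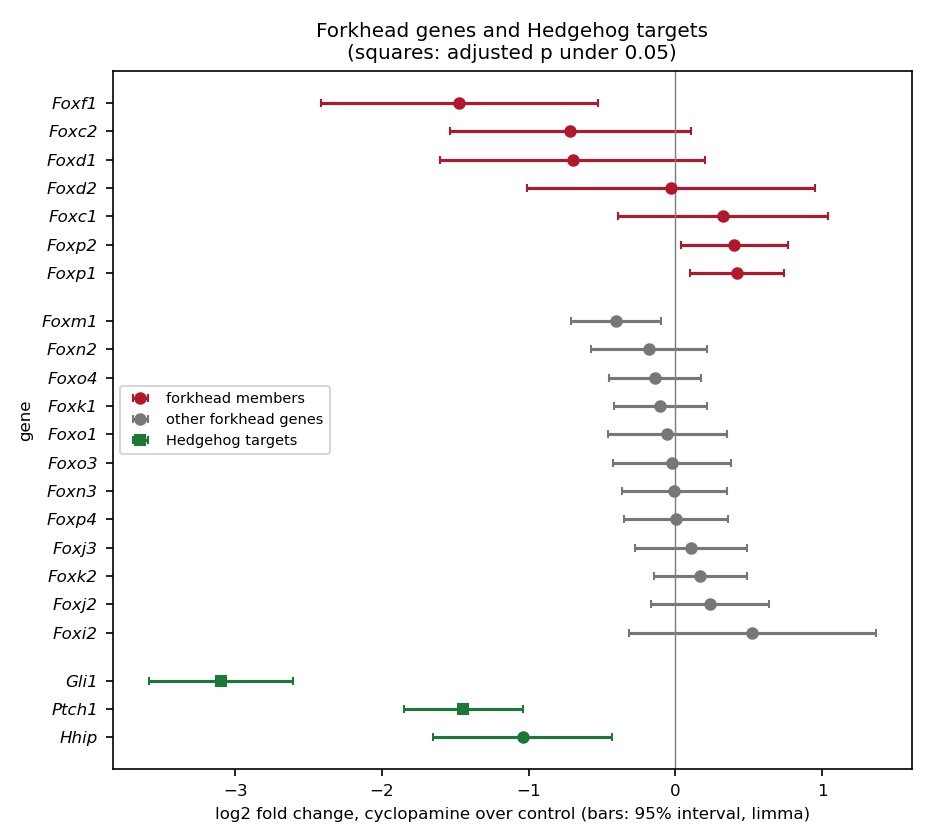
Log2 fold change of cyclopamine over control (x axis) with 95% intervals from limma for 7 forkhead members, 12 other forkhead genes and 3 Hedgehog targets (y axis). Squares mark adjusted p under 0.05, which 2 of the Hedgehog targets and none of the forkhead genes reached in this fit.

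Markers of the tissues in which the members are known were read in the same fit. The 12 limb mesenchyme genes summed to 2354 and 2702 CPM in cyclopamine and 2274 and 2384 CPM in control, with 0 past the threshold. Fgf10 and Hand2 had its smallest p-values, at log2 fold changes of -0.60 and -0.53, and Meis1 had 0.29. The splanchnic and body wall list, where Foxf1 and Fendrr are known, summed to 176 and 201 CPM in cyclopamine and 209 and 178 CPM in control, with 0 of 11 tested genes called and a median log2 fold change of 0.03. Between the controls, all 11 of its tested genes were higher in control 1, at a median ratio of 1.45, against 3.36 for Foxf1. The same order held for 5 of 5 neural crest genes, at a median ratio of 1.18, for 10 of 12 ectoderm genes, at 1.52, for 8 of 12 endothelial genes, at 1.21, and for 6 of 12 limb mesenchyme genes, at 1.02. It held for 3 of 7 macrophage genes, at 0.991, for 2 of 10 pericyte and smooth muscle genes, at 0.861, for 2 of 7 myoblast genes, at 0.666, for 2 of 7 somite genes, at 0.659, and for 1 of 10 neural genes, at 0.482. Hand1 had the smallest p of the splanchnic list, at 3.71 and 3.65 CPM in cyclopamine and 2.68 and 0.955 CPM in control (limma, adjusted p = 0.793). The defining gut gene Nkx2-3 had 0 and 1 reads in cyclopamine 1 and 2, against 5 and 0 reads in control 1 and 2, too few to rank the libraries. Of the tested genes of this list, Gata4, Gata5, Gata6, Hand1, Tcf21 and Wt1 were highest in a cyclopamine library. Isl1, Barx1, Tbx4, Osr1 and Bmp4 were highest in control 1. The part of this tissue in the level of Foxf1 was not tested.

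Somite and sclerotome genes, where Foxc1 and Foxc2 are known, summed to 179 and 196 CPM in cyclopamine and 145 and 183 CPM in control, with 0 of 7 tested called. Pax1 had the smallest p of that list, with a log2 fold change of 0.97. The 12 endothelial genes, another source of Foxc1, Foxc2 and Foxf1, summed to 529 and 573 CPM in cyclopamine and 488 and 469 CPM in control. Of these 11 were higher and 0 passed, with Cldn5 at 0.72 and Sox18 at 0.44. The 12 pericyte and smooth muscle genes summed to 370 and 504 CPM in cyclopamine and 384 and 459 CPM in control, with 0 called. Neither the endothelial nor the smooth muscle list was highest in control 1, and their part in the levels of the Foxc genes was not tested.

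Neural genes, a known site of Foxp1, Foxp2 and Foxd1, did change: all 10 tested were lower in cyclopamine. Of these, 7 passed the threshold, in a fit that called 32 of 13568 genes lower. Tubb3, a neuronal tubulin gene, fell by 1.82 and Stmn2 by 2.04 on the log2 scale. The 13 listed genes summed to 11.0 and 13.2 CPM in cyclopamine and 49.3 and 84.0 CPM in control, and Ina, Neurog2 and Lhx3 had 0 reads in both cyclopamine libraries. Foxp1 and Foxp2 were higher in the libraries with less of this list, and Foxf1 was higher in control 1 while the list was higher in control 2. Foxd1 followed the order of the list between groups and between the controls, though not between the cyclopamine libraries, and the part of neural tissue in the levels of these 4 genes was not tested. Neural crest genes summed to 115 and 107 CPM in cyclopamine and 133 and 115 CPM in control, migrating myoblast genes to 118 and 136 CPM and 85.3 and 136 CPM, ectoderm genes to 493 and 362 CPM and 486 and 360 CPM, and macrophage genes to 16.6 and 27.3 CPM and 22.7 and 23.8 CPM. Of these 4 lists, 1 ectoderm gene passed, the ridge growth factor gene Fgf8, which fell.

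The remaining fixed neighbours of the members were Exoc2, Btf3, Irf8, Mdfic, Ppp1r3a, Eif4e3 and Gpr27, between 37.2 and 652 kb away, and 0 of the 9 tested neighbours passed in limma, with 0 at an unadjusted p under 0.05. The 5 of these with enough reads had log2 fold changes between -0.17, for Exoc2, and 0.27, for Mdfic. Promoter sequences from RefSeq (GRCm38.p6) were matched for 5 members, Foxf2, Foxc1, Foxd1, Foxd2 and Foxp1, and the 250 bases before each start were searched on both strands. The core of the GLI motif, ACCACCC, was found in 3.92% of all promoters and in 0 of the 5 members. The forkhead motif TGTTTAC was found in 3.17% of all promoters and likewise in 0 of the 5. Exons of Foxf1 and Foxf2 overlap those of small genes on the opposite strand over 98 bases each. Exons of Foxp1 overlap those of other genes on its own strand over 435 bases, or 3.16% of its exon length. The sources used here do not say if counting used strand, which would not separate the overlap at Foxp1. The reads affected were not measured.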

How the data were processed

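Values came from 2 deposited tables. In the first, the authors' deposited signal per gene and library is a normalized count per 1000000 of an effective library size. All of its values (100% in each library, within 0.01 of a read) were whole multiples of a single read's worth, so reads could be recovered. The second is the authors' deposited table of log2 fold changes, mean log2 CPM, p-values and false discovery rates, with the test not stated. Per the submitters' processing notes the build was mm10, and the tools, whose roles are not stated, included HTSeq 0.5.4p5, TopHat2 2.0.9, edgeR 3.4.2, SAMtools and Bowtie. The sources used here do not state the annotation, the strand setting or the handling of multiply mapped reads.

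Genes were tested as stated in the report, with limma 3.58.1 (R 4.3.3), an intensity trend and no covariate; p-values are two-sided. Normalized values called for limma, and edgeR 4.0.16 and DESeq2 1.42.0 on recovered reads were alternatives. Fold changes on the log2(CPM + 0.5) scale understate the change of low genes. P-values cover only the spread between these libraries, which may be technical, and a permutation of 2 against 2 cannot go below p = 0.333. In limma each gene's variance is drawn towards that of genes of similar level, so SEs, intervals and p-values rest partly on other genes. Intervals and floors cover counting error only. Every pair of libraries differed beyond sampling noise, with a smallest chi-square of 8.53 per degree of freedom, between cyclopamine 1 and control 1. Tested on simulated counts of 13565 genes, the fit called 79% of genes changed by 1 on the log2 scale, with 6 false calls. The same spread beyond counting error was set for every gene and not estimated from these libraries. No deviation shared by same-numbered libraries was simulated, and changes were placed only in genes that averaged 5 CPM or more. The 79% and the 6 false calls hold for that setting only. Foxf1, Foxf2, Foxc2, Foxd1 and Foxd2 averaged less, so that share does not describe them. Other alternatives were scalings, filters, pseudocounts, variance models, the replicate block and leaving out libraries.

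The members, gene lists and tests were chosen with earlier results of these data known. Named are all members and measured neighbours, other forkhead genes with at least 5 CPM or an unadjusted p under 0.05, the Hedgehog targets, up to 3 genes of each list by smallest p, and the 3 nearest patterns to the member with the largest change. Nkx2-3, the splanchnic genes given by their highest library, Tbx5, Tbx4, the neural genes at 0 reads and the Foxa and Foxi2 genes were named after their values were seen. Counting each list's genes by which control was higher was likewise decided after seeing the data, and the share over all genes was not counted. A gene and some sequence are not reported here.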

Additional observations from a re-analysis of the deposited data

How the results depend on the processing

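Of 116 refits of members' log2 fold changes, 110 kept their direction and their side of the threshold, 3 passed it and 3 changed sign. The count of members past the threshold was 2 with the replicate block (Foxf1 and Foxp1) and otherwise 0, except in the fits without a library, where it ran from 0 to 1 (Foxf1 without control 2). The replicate block also called 1 other forkhead gene, Foxm1, and 351 genes in all, against 38 without it. Same-numbered libraries deviated together across genes (r = 0.27). Chi-square per degree of freedom was 8.53 between the libraries numbered 1 and 14.08 between those numbered 2. It was 16.04 between the cyclopamine libraries, 15.93 between the controls, and 17.84 and 20.58 for the remaining pairs. By correlation of log2 values the number 1 pair was also closest (0.9896). The number 2 pair (0.9864) lay below the cyclopamine pair (0.9874) and the control pair (0.9883). With 2 pairs and no label behind the numbers, what same-numbered libraries share was not tested. The genes called in all numbered 2 without the filter, 0 with a constant prior variance in place of the trend (837 had an unadjusted p under 0.05), 85 in edgeR's exact test, 20 when scaled to the library total, and between 43 and 122 without a library. Of the 3 Hedgehog targets described, 2 passed in limma, against 1 without the filter, 0 without the trend and 3 with the replicate block (Hhip added). Sign changes came without a library, with Foxd2 from -0.62 to 0.56 and Foxc1 from -0.33 to 0.98. In fits without a library the lone library of a group is assumed to vary like the other group. The cause of these changes was not tested. Foxf1 had an adjusted p of 0.288 in edgeR's quasi-likelihood test, 0.0672 in its exact test and 0.196 in DESeq2, and from 0.00192 to 0.855 over all alternatives. Foxf2, Foxd1 and Foxd2 rest on 47 reads or fewer in each group, and Foxf1 on 39 in the cyclopamine group. That limits what the levels of these genes can show.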
